A study of Mus musculus with 49 samples.

Results

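Among the 49 single cells sequenced from the mouse metanephric mesenchyme, 27 held Six2 transcripts at 1 RPKM or more, and these 27 cells were divided by Gdnf. In 12 of them Gdnf stood at 1 RPKM or more (Gdnf-positive cells) and in 15 it stood below 1 RPKM (Gdnf-negative cells). Both sets were chosen by measured values of Six2 and Gdnf, so those 2 genes are given as a description and all other genes are compared. The cells came from kidneys of embryos at 11.5 dpc (Theiler stage 19) that carried the Tg(Crym-EGFP)82Gsat reporter transgene, on a mixed background and of both sexes. No further allele or agent is named, and all cells share the transgene. The mesenchyme was dissected by its green fluorescence, a little beyond the labelled edge. Crym drives the reporter, and the labels equate its domain with that of Six2 at this stage. No embryo or litter is named for any cell, so each set counts as 1 sample: no test was made, no p-value is given, and intervals on shares of cells (exact binomial, 95%) cover counting error only.

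Six2 is a homeobox transcription factor that keeps nephron progenitors in their undifferentiated state around the tips of the ureteric bud. Gdnf, glial cell line-derived neurotrophic factor, is secreted by this mesenchyme and acts on the bud through the receptor tyrosine kinase Ret and its co-receptor Gfra1, where it drives outgrowth and branching. Its transcription is known to depend on regulators such as Eya1, Pax2, Sall1, Osr1 and the Hox11 paralogs, and its domain is limited by Slit2 acting through Robo2. Sprouty proteins and BMP4 restrain the response of the bud.

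Gdnf (gene ID 14573; chromosome 15, 7761011 to 7787575 in mm9) ranged in the positive cells from 1.16 RPKM in cell 47 through a median of 16.9 RPKM to 162 RPKM in cell 49. It was listed at 0 in 14 of the 15 negative cells and at 0.150 RPKM in cell 36. The threshold therefore separated cell 47 from cell 36, with no Six2 cell in between. Low values of Gdnf were whole multiples of 1 smallest step once scaled by the relative depth of the cell (12 of 12 values under 60 steps, within 0.05 of a step). In those units cell 36 held 1 step and cell 47 held 7, while the next positive cell, cell 48, held 27 and cell 49 held 1020.

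**Figure D1:**
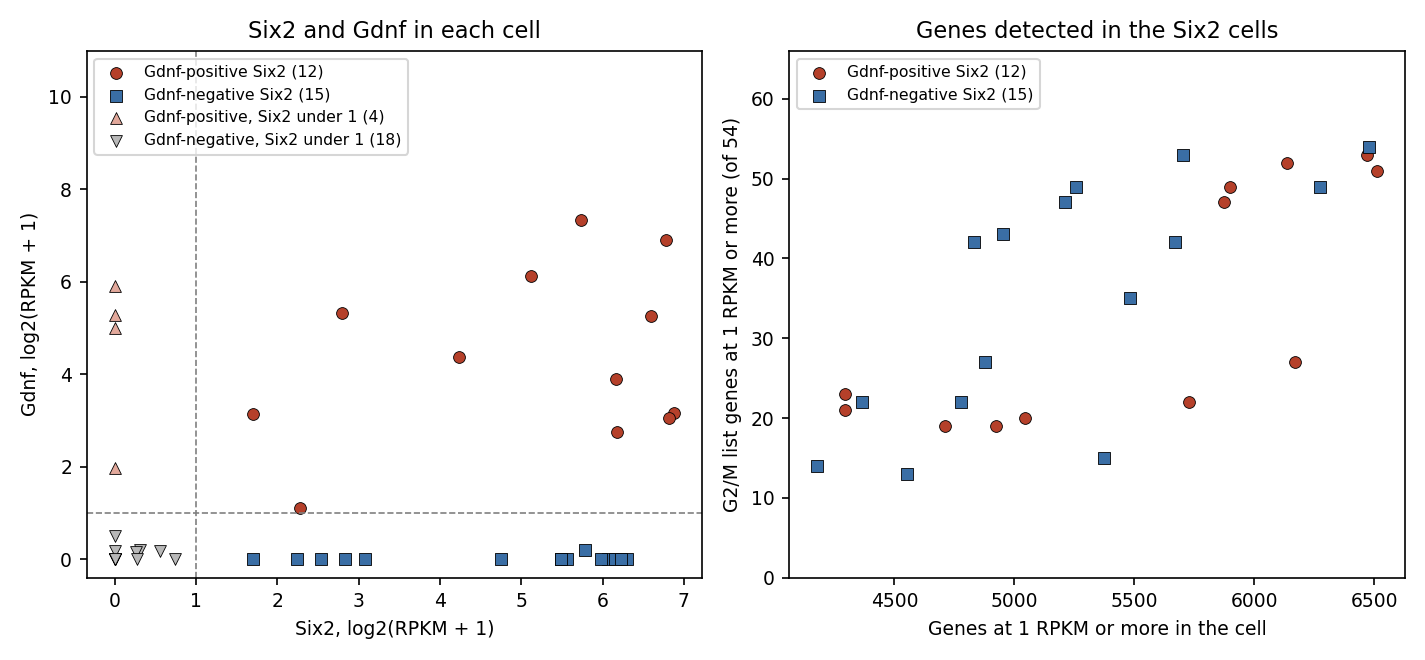
Left, Six2 and Gdnf in all 49 cells, each as log2(RPKM + 1), with dashed lines at 1 RPKM; colours and symbols give the 4 combinations and their numbers of cells. Right, for the 27 Six2 cells, the number of genes at 1 RPKM or more against the number of G2/M list genes among them. Gdnf-positive cells span nearly the whole range of Six2, and both sets span similar ranges of genes detected.

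Six2 (gene ID 20472; chromosome 17, 86083608 to 86087594) had a median of 61.5 RPKM in the positive cells, from 2.24 to 117, and of 44.1 RPKM in the negative cells, from 2.25 to 77.9. The ranges overlapped almost fully, and the 4 cells above 78 RPKM (cells 4, 15, 19 and 24) were all Gdnf-positive. Gdnf was also present at low Six2: cell 5 had Gdnf at 7.78 RPKM beside Six2 at 2.24, and cell 6 had Gdnf at 39.3 RPKM beside Six2 at 5.94.

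One negative cell cannot be placed by its values. Cell 3 had 0.0346 times the reads of the median cell of the series, against 0.699 to 1.52 times in the other 26 Six2 cells. Its Six2 value of 7.44 RPKM is a single step, and a single step of Gdnf would have been 4.47 RPKM there, above the threshold. The absence of Gdnf was therefore not measurable at the threshold in cell 3, and differences that rest on it are named below.

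The sets also differed in how many genes were detected. A positive cell had a median of 5800 genes at 1 RPKM or more, from 4293 to 6510, and a negative cell 5210, from 4178 to 6476. Of 8309 genes detected in at least 6 of the 27 cells, 4887 (58.8%) had a higher mean log2(RPKM + 1) in the positive cells, and the median difference over all of them was 0.15. Differences below are the mean log2(RPKM + 1) of the positive cells minus that of the negative cells, with SDs over cells, and are best read against that shift. This scale understates differences of low genes. The part of gene detection in the results was not tested, but values adjusted for it are given where they matter. A gene was taken to stand out when its difference was at least 1 in size and its share of cells at 1 RPKM or more differed by at least 30 percentage points in the same direction. By this size rule 363 genes (4.37%) were higher and 142 genes (1.71%) were lower in the positive cells, which is the background for each group of genes.

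Of 147 secreted factors listed, 90 were analysed and 33 were detected in enough cells to be compared. Bmp7, Bmp4, Ptn and Sema3f passed the size rule as higher in Gdnf-positive cells, 4 of 33 (12.1%) against 4.37% of all genes, and none was lower. This share includes Bmp4, which entered the comparison only through positive cells: it was detected in 6 cells, the minimum, and all 6 were positive. Bmp4 could therefore not come out as lower. Adjusted for genes detected per cell, Bmp7 and Ptn no longer passed. The median difference over the 33 was 0.11, close to that of all genes. Among the lists these 33 come from, 2 of the 5 BMP and TGF-beta ligands compared were higher, Bmp4 being 1 of them, as were 1 of 10 other growth factors and 1 of 7 guidance factors.

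Bmp7, a BMP ligand needed for survival and renewal of nephron progenitors, was at 1 RPKM or more in 9 of 12 positive cells (75.0%, interval 42.8 to 94.5%) and in 5 of 15 negative cells (33.3%, interval 11.8 to 61.6%). Its values ran from 0 through a median of 6.65 to 38.3 RPKM in the positive cells, and from 0 through 0.154 to 47.1 RPKM in the negative cells. The ranges overlapped, and the highest value belonged to the negative cell 35. The difference was 1.44 (2.72 ± 1.91 against 1.28 ± 1.84, SD) and was 0.90 when adjusted for genes detected per cell, which is under the size rule.

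Bmp4, a BMP ligand that in the mesenchyme around the ureter opposes budding, was listed at 0 in all 15 negative cells (0 of 15; 3 counts of 15, taken as the limit for a count of 0, would be 20.0%). In the positive cells it was at 1 RPKM or more in 6 of 12 (50.0%, interval 21.1 to 78.9%). The values were 79.4 RPKM in cell 4, 63.0 in cell 19, 16.2 in cell 49, 14.2 in cell 12 and 6.19 in cell 29, and cell 6 had between 1 and 2 RPKM. Only 6 cells in all detected Bmp4, so leaving out any 1 of them put it under the minimum of 6 cells for comparison. One end of Bmp4 overlaps Gm15217 in the table, and reads of overlapping genes cannot be told apart without strand.

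Ptn encodes pleiotrophin, a heparin-binding growth factor. It was found in 12 of 12 positive cells, from 1.79 through a median of 36.2 to 381 RPKM, and in 10 of 15 negative cells, from 0 through 1.73 to 98.2 RPKM. Every positive cell lay above the median of the negative cells, while 4 negative cells lay above the median of the positive ones. The first of these rests on cell 3: without it the negative median was 4.43 RPKM, above the positive cell 15 at 1.79 RPKM. The difference was 2.21 (4.97 ± 1.69 against 2.76 ± 2.63). The gap in shares was just past the rule, and leaving out cell 3, 8, 20, 28 or 36 brought it below 30 points while the difference stayed at 1.88 or more. Adjustment for genes detected also took Ptn under the rule, with a difference of 1.73.

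Sema3f, a secreted semaphorin of axon and vessel guidance, was found in 8 of 12 positive cells (66.7%, interval 34.9 to 90.1%) and in 3 of 15 negative cells (20.0%, interval 4.33 to 48.1%). The highest positive values were those of cells 34 and 29, at 79.1 and 76.8 RPKM, and the negative cell 51 reached 68.8 RPKM. The difference was 1.65, and 1.93 when adjusted for genes detected. With cells counted at 5 RPKM or more, Sema3f no longer passed the rule on shares.

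Other growth factors of the same tissue showed wide overlap. Fgf10, a ligand that can also promote bud branching, was found in 8 of 12 and in 10 of 15 cells, with medians of 13.3 and 1.43 RPKM and a difference of 1.14. Sfrp2, a secreted Wnt modulator, had medians of 37.3 and 8.62 RPKM and a difference of 1.14, with 10 of 12 and 12 of 15 cells. Neither passed the rule on shares. Fgf9, a ligand for progenitor survival, was found in 3 positive and 3 negative cells, with a difference of 0.11, and Fgf8 in 2 positive cells, too few to compare. Cell 3 was 1 of the 3 negative cells with Fgf9, and without it Fgf9 falls under the minimum of 6 cells. The R-spondin genes Rspo1 and Rspo3, which strengthen Wnt signalling, were each found in 4 of 12 positive and 8 of 15 negative cells, with differences of -0.83 and -1.14. Broadly found factors lay close together, with medians of 612 and 653 RPKM for the heparin-binding factor gene Mdk, 80.5 and 84.9 RPKM for Igf2 and 144 and 133 RPKM for Fstl1.

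**Figure D2:**
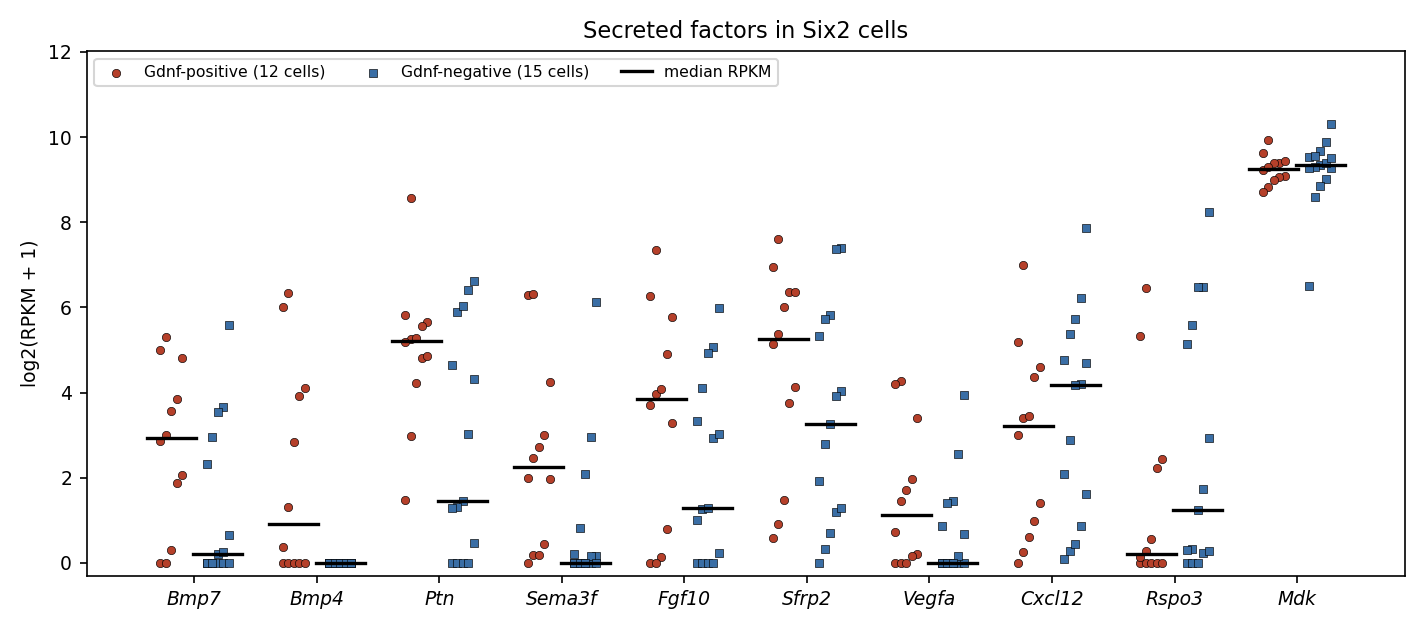
Values of 10 secreted factors in each Six2 cell as log2(RPKM + 1), Gdnf-positive cells in red circles (12) and Gdnf-negative cells in blue squares (15), with bars at the median RPKM. Bmp4 is at 0 in every negative cell, Ptn is above 1 RPKM in every positive cell, and Mdk has close medians in both sets.

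Transcription factors as a group stayed near the background: of 104 compared, 3 were higher (2.88%) and 1 was lower (0.962%) by the size rule, and the median difference was 0.05. The 4 genes were Osr1, Sall2 and Sox4, which were higher, and Meox1, which was lower. Osr1 and Meox1 are both markers of the nephron progenitor list, and they pointed in opposite directions.

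Osr1 (gene ID 23967; chromosome 12, 9581248 to 9588306), a zinc finger gene of the early intermediate mesoderm that acts upstream of Gdnf in mouse kidney, was detected in 12 of 12 positive cells (interval 73.5 to 100%) and in 9 of 15 negative cells (60%, interval 32.3 to 83.7%). It ranged from 2.62 through a median of 82.1 to 124 RPKM in the positive cells, and from 0 through 13.0 to 201 RPKM in the negative cells. Negative cells fell at both ends: it was listed at 0 in 5 of them, whereas cells 13 and 20 had 201 and 183 RPKM, above every positive cell. The difference was 2.31 (5.70 ± 1.53 against 3.40 ± 3.06) and was 2.39 when adjusted for genes detected. Among the 21 Six2 cells with Osr1, 12 had Gdnf, and among the 6 without Osr1 none had. One of those 6 is cell 3; without it the count was 0 of 5, and 3 counts of 5 would be a share of 60%, so few cells bear on this. Of the cells without Osr1, cells 3, 16, 28 and 31 had Six2 from 2.25 to 7.44 RPKM, and cells 36 and 50 had 54.3 and 44.1 RPKM. Among the 9 positive and 10 negative cells with Six2 at 10 RPKM or more, Osr1 no longer passed the size rule. Outside the Six2 cells, Gdnf did occur without Osr1, in 3 of the 4 Gdnf-positive cells below 1 RPKM of Six2.

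Sall2 (gene ID 50524; chromosome 14, 52930856 to 52948345), a spalt zinc finger gene, was found in 12 of 12 positive cells, from 1.17 through 29.7 to 57.9 RPKM, and in 9 of 15 negative cells, from 0 through 2.40 to 78.8 RPKM. In the positive set 11 of 12 cells lay above the median of the negative cells. The difference was 2.15, and 2.11 when adjusted for genes detected. Sox4, an HMG-box factor gene of progenitor cells, stood lower in level, with medians of 4.41 and 1.06 RPKM in 11 of 12 and 9 of 15 cells. Its difference of 1.11 was at the edge of the rule and dropped below it, to no less than 0.96, or lost its gap in shares, without any 1 of cells 3, 8, 21, 26, 36, 47 and 50.

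Meox1, a mesodermal homeobox gene, was found in 6 of 12 positive cells (50.0%, interval 21.1 to 78.9%) and in 14 of 15 negative cells (93.3%, interval 68.1 to 99.8%). The positive cells fell into 2 ranges, with 6 cells from 19.2 to 169 RPKM and 6 cells below 1 RPKM, and the median was 9.88 RPKM. The negative cells ran from 0.821 through 33.7 to 267 RPKM. The difference was -1.51 (3.10 ± 3.03 against 4.61 ± 2.14), and -1.64 when adjusted for genes detected. Meox1 was the 1 transcription factor of the lists that passed the rule as lower.

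**Figure D3:**
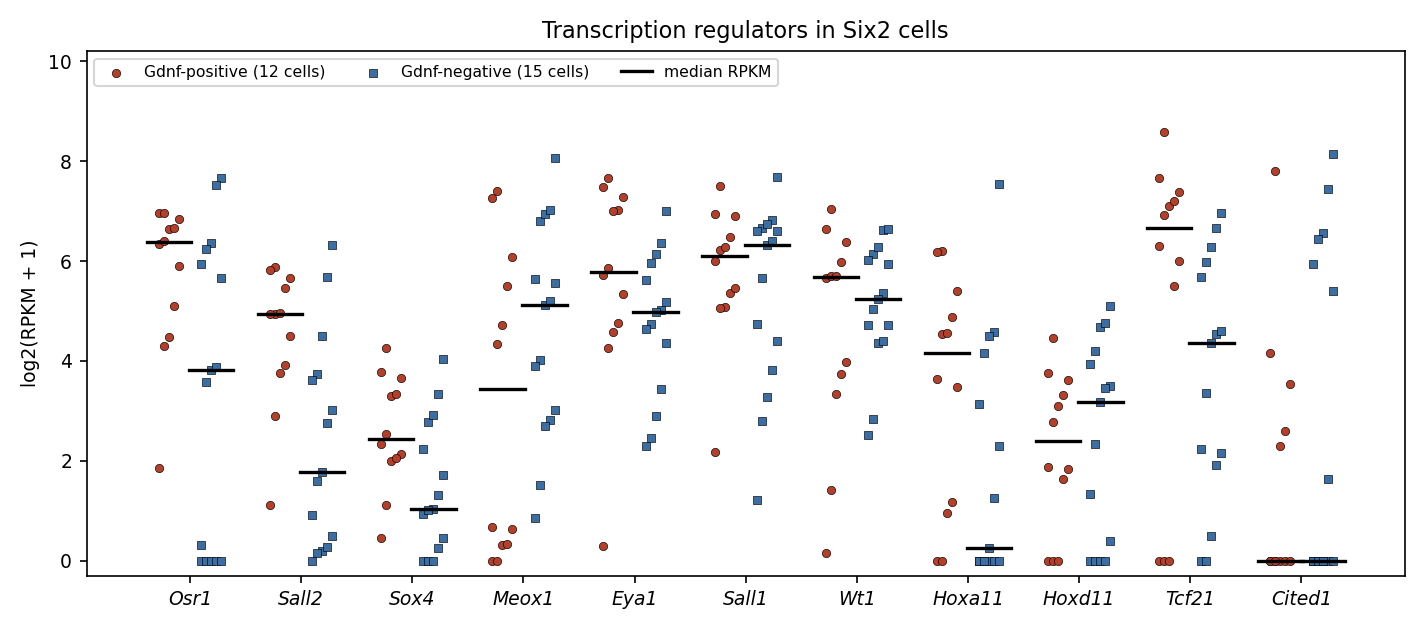
Values of 11 transcription regulators in each Six2 cell as log2(RPKM + 1), with colours, symbols and bars as for the secreted factors. Osr1 and Sall2 are detected in all 12 positive cells, Meox1 is spread over high and near-zero values in the positive cells, and Eya1, Sall1 and Wt1 overlap widely.

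Genes known to regulate Gdnf were mostly present in both sets. Of 49 listed, 48 were analysed and 38 compared. By the size rule 4 were higher (10.5%, against 4.37% of all genes), namely Osr1, Bmp7, Bmp4 and Frem1, none was lower, and the median difference was 0.13. Bmp4 again entered only through the positive cells. The list was chosen for its ties to Gdnf and with earlier results of these data known. Eya1, a coactivator of Six-family proteins needed for Gdnf, was found in 11 of 12 positive and 15 of 15 negative cells, with medians of 54.2 and 30.7 RPKM and a difference of 0.86. Sall1, a zinc finger gene needed for bud invasion, was in every Six2 cell, with medians of 67.9 and 79.5 RPKM. Wt1 was in 11 of 12 and 15 of 15 cells, with medians of 50.3 and 36.9 RPKM.

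Among the Hox11 paralogs, Hoxa11 was found in 9 of 12 and 7 of 15 cells, with medians of 16.8 and 0.185 RPKM and a difference of 1.57; the gap in shares was under 30 points. Hoxd11 went the other way in level, with medians of 4.24 and 8.00 RPKM in 9 of 12 and 10 of 15 cells. Hoxc11 was found in 4 of 12 and 2 of 15. Pax2, a paired-box factor that can activate Gdnf directly, was at 1 RPKM or more in only 4 of 12 positive cells (33.3%, interval 9.92 to 65.1%) and 3 of 15 negative cells (20.0%, interval 4.33 to 48.1%), so that 8 of the 12 Gdnf-positive cells had no Pax2 at this threshold.

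Frem1, an extracellular matrix gene of the Fraser complex, was found in 10 of 12 positive cells (83.3%, interval 51.6 to 97.9%) and in 6 of 15 negative cells (40.0%, interval 16.3 to 67.7%). It ran from 0.965 through 6.98 to 34.3 RPKM in the positive cells and from 0 through 0.583 to 16.1 RPKM in the negative cells. All 12 positive cells lay above the median of the negative cells, and 1 negative cell, cell 35, lay above the median of the positive cells. The difference was 1.90 (3.10 ± 1.39 against 1.21 ± 1.28) and stayed between 1.71 and 2.10 when any 1 cell was left out. Its partner genes did not separate in this way: Fras1 was found in 6 of 12 and 6 of 15 cells and Frem2 in 2 of 12 and 4 of 15. Itga8, the integrin of the mesenchyme whose ligand is nephronectin, was found in 9 of 12 and 11 of 15 cells. Robo2 was found in every Six2 cell, with medians of 53.1 and 31.5 RPKM.

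In the Gdnf and Ret pathway, the receptor gene Ret was below 1 RPKM in all 27 cells (0 of 12 and 0 of 15, with limits of 25.0% and 20.0% by the same 3 counts). Its co-receptor gene Gfra1, which mesenchyme also expresses, was found in 9 of 12 and 12 of 15 cells, with medians of 12.3 and 7.45 RPKM. Of the 20 genes listed, 18 were analysed and 14 compared. Only Spry4 was higher, 1 of 14 (7.14%, against 4.37% of all genes), none was lower, and the median difference was 0.22.

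Spry4 encodes a Sprouty inhibitor of receptor tyrosine kinase signalling. It was found in 7 of 12 positive cells (58.3%, interval 27.7 to 84.8%), up to 73.8 RPKM in cell 48, and in 4 of 15 negative cells (26.7%, interval 7.79 to 55.1%), up to 46.5 RPKM in cell 36. The difference was 1.55, and 1.26 when adjusted for genes detected. This call was the least stable of the named list genes: the gap of shares was close to 30 points, and it dropped below when any 1 of 18 of the 27 cells was left out.

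Other feedback genes varied in how widely they were detected. Dusp6, a phosphatase that switches off ERK kinases, was in 12 of 12 and 13 of 15 cells, with medians of 104 and 19.2 RPKM and a difference of 1.97. Spry2 was in 12 of 12 and 13 of 15 cells; its values ran from 7.21 through 38.1 to 67.8 RPKM in the positive cells and from 0 through 12.6 to 64.8 RPKM in the negative cells. For Spry2, 11 of 12 positive cells lay above the median of the negative cells. Spred2, which like the Sproutys inhibits this pathway, was in 7 of 12 and 2 of 15 cells, with a difference of 0.68. None of these 3 passed both parts of the size rule. The ETS factor genes of the pathway were split: Etv5 had medians of 36.6 and 7.01 RPKM in 9 of 12 and 10 of 15 cells, whereas Etv4 was found in 3 of 12 and 8 of 15 cells and Spry1 in 2 of 12 and 5 of 15. On the cell surface, the adhesion gene Ncam1, whose product can also bind Gdnf, had a lower median in the positive cells, 15.8 against 41.5 RPKM (difference -1.68), and the glypican gene Gpc3 had 148 against 283 RPKM (difference -0.90).

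**Figure D4:**
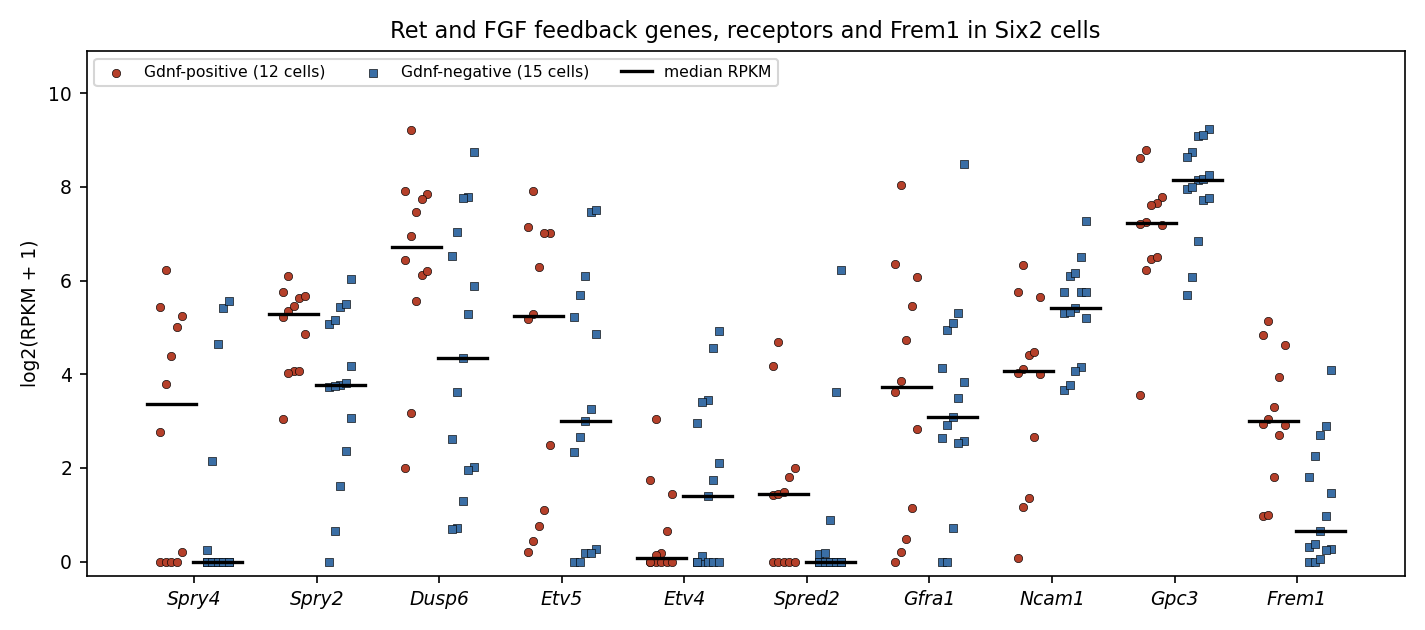
Values of 10 genes of receptor tyrosine kinase feedback, Gdnf binding and the Fraser complex in each Six2 cell as log2(RPKM + 1), with colours, symbols and bars as for the secreted factors. Dusp6, Spry2 and Frem1 have higher medians in the positive cells, Etv4, Ncam1 and Gpc3 lower ones, and all genes overlap between the sets.

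Cited1 and Foxd1, which mark uncommitted progenitors and stroma, were found at close shares in both sets, with wide intervals. Cited1 was found in 5 of 12 positive cells (41.7%, interval 15.2 to 72.3%) and in 7 of 15 negative cells (46.7%, interval 21.3 to 73.4%). Its highest values were 222 RPKM in the positive cell 48 and 281 RPKM in the negative cell 36. Foxd1 was found in 4 of 12 and 5 of 15 cells, 33.3% in each set. Crym stood at 10 RPKM or more in 11 of 12 and 13 of 15 cells, with medians of 624 and 228 RPKM. Restricted to those 24 cells, the size rule gave 396 higher and 201 lower genes, and Bmp4, Sox4 and Spry4 no longer passed.

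Over all genes compared, the largest difference was that of Rbm18, an RNA-binding protein gene, at 4.45 (6.45 ± 1.22 against 2.00 ± 2.62): it was found in 12 of 12 positive cells, from 7.05 through 105 to 202 RPKM, and in 6 of 15 negative cells, with a median of 0.842 and a highest value of 137 RPKM. All positive cells lay above the median of the negative cells, and 2 negative cells, cells 31 and 33, lay above that of the positive cells. Rbm18 overlaps Mrrf in the table, which had a difference of 1.43. Next came Rraga, a Rag GTPase gene of amino acid sensing by mTORC1, in 11 of 12 and 3 of 15 cells (difference 3.11).

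Others that were higher included Eapp (2.97), the N-glycan assembly genes Alg3 (2.87) and Alg5 (2.80), the phosphatidylinositol transfer gene Pitpnb (2.81), Enc1 (2.76), Lysmd1 (2.74), AA960436 (2.71), the zinc transporter family gene Slc30a9 (2.61) and Pdxk. Pdxk, the kinase of vitamin B6, was found in 8 of 12 positive cells and in 0 of 15 negative cells, where it did not exceed 0.153 RPKM. Like Bmp4, Pdxk entered the comparison only through positive cells, so it could not come out as lower. AA960436 and Lysmd1, found in 7 and 6 positive cells and in 1 negative cell each, also needed the positive cells to enter. Enc1, an actin-binding protein gene, differed in level and not in detection: it was 219 to 1659 RPKM in the positive cells and 0.427 to 930 RPKM in the negative cells, so that it did not pass the rule on shares.

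The 12 that were lower were led by Aldh4a1, an enzyme gene of proline breakdown, found in 0 of 12 positive cells and in 10 of 15 negative cells, where it reached 291 RPKM. They went on with 1810013D10Rik (-2.71), Faim, an inhibitor of apoptosis (-2.71), Acadvl, which acts in the oxidation of very long-chain fatty acids (-2.66), Plp2 (-2.58), Strada (-2.44), the mRNA 3' end processing gene Cstf1 (-2.44), the inositol phosphate kinase gene Ip6k2 (-2.41), Dbnl (-2.34), the stress response gene Ppp1r15a (-2.32), Prr3 (-2.24) and the mRNA cap scavenging gene Dcps (-2.24). Plp2, Ip6k2 and Dcps did not pass the rule on shares. Aldh4a1 entered the comparison only through negative cells, so it could not come out as higher. Dbnl, in 6 of 12 and 12 of 15 cells, was exactly at 30 points and no longer passed when any 1 of 18 cells was left out, cell 3 among them. Acadvl, Dcps, Plp2, Ppp1r15a and Strada overlap another gene of the table. These genes are the extremes of 8309 and no test bears on any of them.

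**Figure D5:**
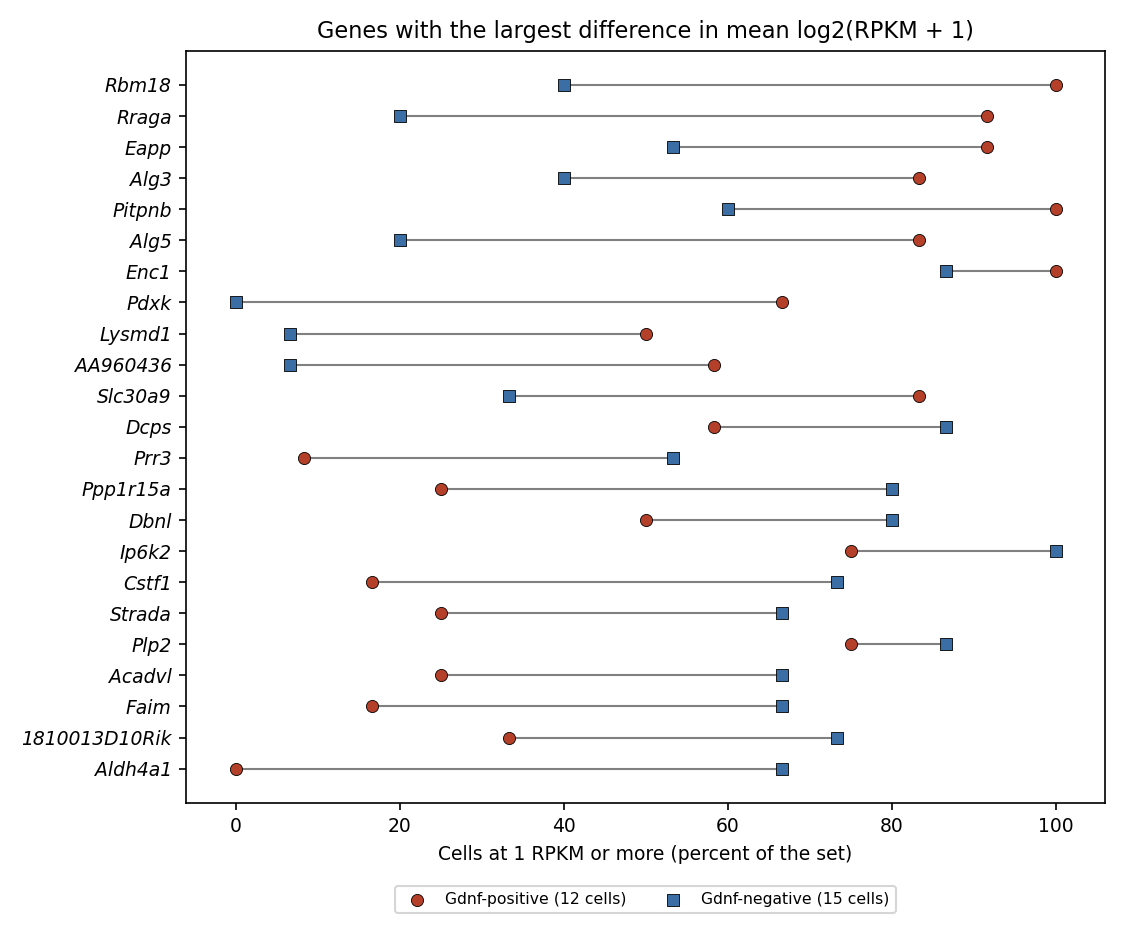
Percent of cells at 1 RPKM or more in Gdnf-positive cells (red circles, of 12) and Gdnf-negative cells (blue squares, of 15) for 11 of the 12 genes with the largest difference upward and all 12 downward, ordered by the difference in mean log2(RPKM + 1). Pdxk is in no negative cell and Aldh4a1 in no positive cell at this threshold, and each entered the comparison only through the other set.

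Of the cell cycle lists, G2/M genes were fewer per cell in the positive set by the median, with ranges that overlapped almost fully. A positive cell had a median of 25 of the 54 G2/M genes, from 19 to 53, and a negative cell 42, from 13 to 54. Without cell 3 the median of the negative cells was 38.5. In this list 2 of 53 compared genes, the spindle genes Nusap1 and Ttk, were lower by the size rule (3.77%, against 1.71% of all genes), none was higher, and the median difference was -0.34. Of the 44 G1/S genes, a median of 35.5 was detected in a positive cell and 31 in a negative cell. Their summed level went the other way, with medians of 2493 and 2969 RPKM. None passed the size rule, and their median difference of 0.08 was below the 0.15 of all genes. The part of the cell cycle in the other differences was not tested; adjusted for the number of G2/M genes, Osr1 differed by 2.29, Bmp7 by 1.55, Sall2 by 2.17 and Meox1 by -1.48. The summed level of the 17 stroma markers analysed ran from 7.59 to 696 RPKM in the positive cells and from 69.3 to 921 RPKM in the negative cells, and none of the 12 compared passed the size rule. Of the muscle and mural markers, 6 were analysed and 3 compared; none passed the size rule, all 3 had a positive difference and their median was 1.19. Their summed level ran from 0 to 901 RPKM in the positive cells (median 41.6) and from 0 to 200.3 RPKM in the negative cells (median 16.0). The highest sums were those of the positive cells 48, 47 and 49, the smooth muscle gene Acta2 was listed at 0 in all 27 cells, and the part of these markers in the results was not tested. No endothelial reached 1 RPKM in a positive cell and only Egfl7, in 3 cells, in a negative one. The ureteric bud genes Wnt11 and Cdh1 were listed at 0 in all 27 cells. The summed level of the 13 ureteric bud genes analysed ran from 0 to 164 RPKM in the positive cells and from 0 to 30.2 RPKM in the negative cells. The 164 RPKM was that of cell 29, nearly all of it Epcam (163 RPKM). Cell 12 held 4 of these genes (54.3 RPKM in sum) and cell 50 held 3. Without cells 12 and 50, but with cell 29 kept, Osr1, Sall2, Bmp7 and Meox1 still passed the size rule, whereas Bmp4, Sox4, Spry4 and Dbnl did not. Without cell 29 alone, Bmp4, Dbnl and Spry4 no longer passed.

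Cells below 1 RPKM of Six2 can also be compared by Gdnf, though only 4 of those 22 cells had Gdnf and their markers were mixed. Among the 18 others, cell 25 held 12 ureteric bud genes (832 RPKM in sum) and cell 27 held 8 endothelial genes (1125 RPKM in sum). Of the 4, cells 38 and 41 had Crym at 222 and 358 RPKM, whereas cells 18 and 40 had 0.999 and 2.78 RPKM. The part of cell type in the differences was not tested. Sall2 was found in 4 of the 4 and in 12 of the 18 others (difference 2.44), and Bmp7 in 2 of 4 (cells 38 and 41) and 2 of 18 (difference 1.97). Meox1 was found in 1 of 4 and 9 of 18 (difference -1.27). Osr1 was scarce in both groups, with medians of 0 RPKM, so few of these cells bear on its difference. It was found in 1 of 4, at 2.15 RPKM in cell 41, and in 2 of 18, up to 4.27 RPKM in cell 11 (difference 0.07). Cells 18, 38 and 40 had Gdnf at 2.94, 31.3 and 38.0 RPKM with Osr1 listed at 0. Among the 6 Six2 cells without Osr1, by contrast, none had Gdnf. Bmp4 and Sema3f were in none of the 4 and in 4 and 6 of the 18. Their differences, -1.22 and -1.01, were opposite in sign to those in the Six2 cells (2.07 and 1.65). Spry4 also had a difference of the opposite sign, -0.28, with 2 of 4 and 5 of 18, while Ptn, Frem1 and Sox4 had 0.69, 0.83 and 0.88. The highest Spry4 value among the 18, 267 RPKM, was that of cell 27 with its endothelial genes. That cell was not left out, so the sign of Spry4 may rest on it. Cell 7, among the 18, had a relative depth of 0.0462, so that neither Gdnf nor Six2 could be measured at 1 RPKM there; without it no sign changed and the differences of Sall2, Bmp7 and Meox1 were 2.41, 1.94 and -1.43. Whether these differences differ from those in the Six2 cells was not tested.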

How the data were processed

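The authors deposited RPKM values, which scale reads to gene length and to the mapped reads of each cell; the unit is named in the table. The submitters' processing notes name TopHat 1.4.1, DESeq and mm9 but give them no role, and they name no read counter. Per the labels' protocols, single cells were captured on a Fluidigm C1 chip, amplified with SMARTer chemistry and made into libraries with Nextera XT, which keeps neither strand nor molecular identifiers, so values reflect amplified molecules. Per the file headers all 49 cells were sequenced in 1 lane. The table holds 13093 genes, each above 3 RPKM in at least 1 cell, as checked on the values; genes outside it were not analysed here. Nothing says whether its coordinates count from 0 or 1. Total reads are unknown. Relative depth was taken from the pile-up of equal small values between cells (genes below 8 RPKM in both, window 2e-05 in the natural log), after a test on simulated data.

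Cells were matched by the cell number in both names, and 0 columns were unused. No cell was filtered, and no doublet caller was run; the chambers had been inspected under a microscope. The members and the 27 gene lists were chosen with earlier results of these data known. Named genes are all members of the Gdnf, secreted factor and transcription factor lists past the size rule, further list members by examples, and the 12 largest differences each way, ranked by the smaller of the differences with and without cell 3. A few genes, 1 of these among them, are not reported here. The examples include members picked after their values were seen. Calculations used Python 3.11.15, numpy 2.4.6, pandas 2.3.3 and scipy 1.17.1.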

Additional observations from a re-analysis of the deposited data

Results flagged for a closer look

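Gdnf was present in cells outside the Six2 set. It stood at 1 RPKM or more in 4 of the 22 cells below 1 RPKM of Six2 (18.2%, exact 95% binomial interval 5.19 to 40.3%). This is a description of a gene that the choice of cells used. The values were 58.9 RPKM in cell 41, 38.0 in cell 40, 31.3 in cell 38 and 2.94 in cell 18, and Six2 was listed at 0 in all 4 cells. In steps of the smallest value these were 477, 220, 213 and 19, so the first 3 lie well within the range of the Gdnf-positive Six2 cells.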

How the results depend on the processing

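The size rule gave 363 higher and 142 lower genes. With a pseudocount of 5 it gave 128 and 39, and Bmp7, Meox1, Sema3f, Sox4 and Spry4 no longer passed. Adjusted for genes detected per cell, an alternative added after the data were seen, it gave 263 higher and 268 lower genes, so the excess of higher genes was gone, the median difference of all genes was 0.05, and Bmp7, Ptn, Sox4 and Spry4 no longer passed. With Six2 at 10 RPKM or more there were 347 higher and 268 lower genes, and Osr1, Bmp4, Ptn and Spry4 no longer passed. The cause of these shifts was not tested. Leaving out any 1 cell gave 320 to 478 higher and 122 to 204 lower genes; without cell 3, there were 339 and 150. The other planned settings kept both counts within 1.5 times, but single calls were lost: Sema3f and Sox4 at a detection threshold of 5 RPKM, Sox4 and Spry4 with Gdnf at 5 RPKM or more, Ptn, Sox4 and Dbnl with Gdnf-negative cells at 0, and Bmp4 with a minimum of 10 cells, along with AA960436, Lysmd1, Pdxk and Prr3. Among the Six2 cells, no difference of the 34 named genes changed sign in any setting. Pseudocount 0.1 moved Bmp4 to 3.78 and Pdxk to 5.01, since each is at or near 0 in the negative cells. Detection in single cells limits all shares: Tbp and Hprt, used by every cell, were listed at 0 in 6 and 2 of the 27 cells.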

Other observations

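Hox genes of paralog groups 3 to 9 and stromal regulators had no member past the size rule. None of the 16 Hox genes compared passed the size rule, and their median difference was 0.01; Hoxb9 had the largest, at -1.62, with medians of 0.833 and 32.0 RPKM in 6 of 12 and 11 of 15 cells. Of 23 stromal and mesodermal factors compared none passed, 8 had a positive difference, and the median was -0.23. Within that list Nr2f1, an orphan nuclear receptor gene, had medians of 5.41 and 20.8 RPKM (difference -1.42) and Meis3 0.718 and 16.2 RPKM (difference -1.35). On the other side, Tcf21, a basic helix-loop-helix gene of kidney mesenchyme, had medians of 99.6 and 19.5 RPKM (difference 1.54) and was listed at 0 in 3 of 12 and 2 of 15 cells. Smad4, the common partner of receptor-activated Smads, had medians of 25.8 and 7.33 RPKM (difference 1.64), whereas the BMP target Id3 had 326 and 426 RPKM (difference -0.95). These genes were picked for the text after their values were seen.

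No gene of the dissociation stress list or of the housekeeping list passed the size rule, among 9 and 14 compared, and their median differences were -0.02 and 0.33.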
